A study of Homo sapiens with 2 samples.

Results

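The mRNAs of the human mitochondrial genome were examined in GM12878 cells by m6A immunoprecipitation. They were taken as every window of the deposited table whose gene name starts with MT-, which gave 228 windows in 12 genes out of 3335372 windows under 47352 gene names. All 12 are protein-coding and each has 1 listing of 1 exon. Other mitochondrial RNAs, among them MT-ATP8, the ribosomal RNAs and the transfer RNAs, do not carry a name of this form and are not analysed here under a gene name. GM12878 is an established line of human B lymphoblasts, immortalised with Epstein-Barr virus, and both groups came from cells grown in RPMI with serum. In the input group RNA was fragmented and sequenced, and in the IP group fragments bound by an antibody against N6-methyladenosine (m6A) were recovered first. There was 1 library of each kind, so differences between IP and input could not be tested across replicates.

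The mitochondrial genome is a small circular DNA inside the organelle. It is transcribed on both strands into long precursors that are cut, mostly at transfer RNA genes, into separate mRNAs, ribosomal RNAs and transfer RNAs. Its mRNAs encode core membrane subunits of the respiratory chain: complex I (NADH dehydrogenase), complex III (cytochrome bc1), complex IV (cytochrome c oxidase) and complex V (ATP synthase). They have no introns and almost no untranslated ends, and they stay in the matrix, whereas the METTL3 and METTL14 enzyme that places m6A on most mRNAs works in the nucleus. Window sequences are not printed, since windows carry no genome position.

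Each window holds 2 coverage values, 1 per library, scaled by the authors. Windows span 100 nt and start every 50 nt, and reads were 36 nt long, as the values themselves show. At a scaled coverage of 1 the depth over a base was 5.84 input reads or 3.71 IP reads, and the 12 genes together held the equivalent of 5.15 M input reads and 3.49 M IP reads. The source label speaks of embryonic stem cells from mouse, whereas the organism and cell line fields give human GM12878. All 6 B cell markers reached an input coverage of at least 1 (9.93 to 775), none (0) of 6 pluripotency markers did (highest 0.153), and T cell, myeloid and fibroblast markers reached it in 2, 1 and 1 of 5 each (highest 8.28, 1.12 and 1.69).

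The mitochondrial mRNAs were among the most abundant RNAs of the table, and all 12 ranked within the first 93 gene names by input coverage. They held 9.95% of input coverage on 1 listing per gene (exact 95% interval 9.94 to 9.96) and 5.97% of IP coverage (5.97 to 5.98). With all listings of every gene counted, which adds windows to multi-listing genes only, the shares were 5.77% and 3.31%. These intervals cover counting error only. The median of the 12 genes was 2266, which is 131 times the median of 17.3 over 72 nuclear-encoded respiratory chain genes. MT-ND6, the lowest of the 12, stood 2.78 times above the highest of those nuclear genes.

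Among complex IV mRNAs, MT-CO1, which encodes the catalytic subunit, had the highest mean input coverage of the 12 at 5764. Its mean IP coverage was 5101. MT-CO2, the subunit that receives electrons from cytochrome c, stood at 4017 in the input and 4258 in the IP. MT-CO3, which encodes the remaining core subunit, stood at 4004 and 3864. The complex V mRNA MT-ATP6, whose product forms part of the proton channel, stood at 4011 in the input and at 5338 in the IP, the highest IP value of the 12. Thus MT-CO2, MT-ATP6 and MT-CO3 were nearly level in the input and apart in the IP. MT-CO1 alone held 28.1% of the coverage of the 12 genes in the input and 23.3% in the IP, while MT-ATP6 held 8.85% and 11.0%.

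Complex I mRNAs, which encode membrane subunits of the proton-pumping arm, ranged more widely. MT-ND4 had a mean coverage of 3123 in the input and of 3737 after IP. MT-ND4L, whose reading frame overlaps the start of MT-ND4 on a shared mRNA, had 2743 and 2085. MT-ND1 had 1790 and 1932. MT-ND2 had 1600 and 2032, and MT-ND5 had 1525 and 1918, so these 3 were close to each other in both libraries. MT-ND3 was lower at 1112 and 1173. MT-ND6, the one mRNA of the set encoded on the opposite strand, was the lowest of all at 325 and 322. MT-ND6 thus lay 3.42 times below MT-ND3 in the input and 3.65 times below it in the IP. Coverage is given without a split by strand, so the strand of the reads in the MT-ND6 windows is not known here. MT-CYB, the only complex III subunit of this genome, had 1681 in the input and 1817 in the IP.

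From highest to lowest input the order was MT-CO1, MT-CO2, MT-ATP6, MT-CO3, MT-ND4, MT-ND4L, MT-ND1, MT-CYB, MT-ND2, MT-ND5, MT-ND3 and MT-ND6, with a span of 17.7 times. Coverage is per base and can be set side by side between genes, but a single library gives no spread between samples, so close neighbours in this order cannot be ranked firmly. Windows within a gene varied by 27.7% (MT-ATP6) to 57.3% (MT-ND6) of the gene's mean (SD over windows), which is more than the gap between most neighbours. The order in the IP was close to that of the input (Spearman 0.94 over 12 genes from the same 2 libraries, given as a description).

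**Figure D1:**
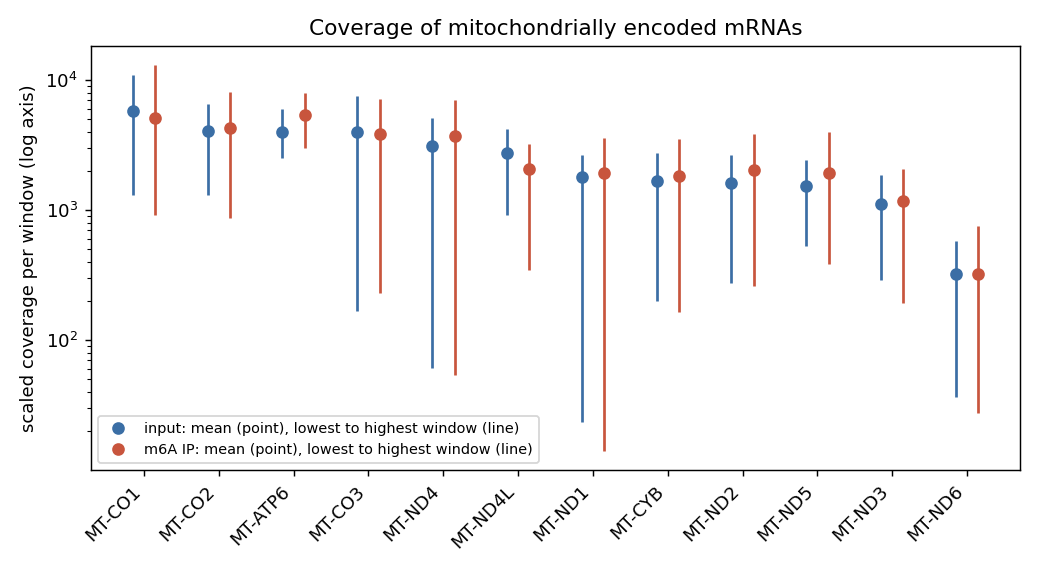
Mean scaled coverage of each mRNA in input (blue) and IP (red) on a log axis, with lines from the lowest to the highest window of the gene and genes ordered by input. MT-CO1 is highest in the input at 5764, MT-ATP6 is highest in the IP at 5338, and MT-ND6 is lowest in both.

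The first question was whether any stretch of these mRNAs was enriched by the antibody. It was addressed with the authors' window score, a log2 value that gives IP relative to its gene median over input relative to its gene median. No window reached a score of 2, which is 4-fold (0 of 228; a count of 0 would allow up to 1.32% if windows were independent, while neighbours share 50 nt). Over the whole table, 2.64% of windows on 1 listing per gene reached it. This and the other shares of all windows count genes at every input level, including those with a mean input below 1. No window of the 12 genes reached a score of 1 (0 of 228), against 6.5% of all windows. The highest score was 0.78. In the low direction 3 of 228 windows (1.32%) scored -1 or less, against 1.65% of all windows, and none (0) scored -2 or less, against 0.123%.

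Most of the 228 windows lay close to their gene's median ratio, with 188 (82.5%) between -0.5 and 0.5. Scores of 0.5 or more were found in 22 windows of 8 genes and scores of -0.5 or less in 18 windows of 8 genes. Shares at these bounds were not counted over all windows, so it is not known whether they are particular to the 12. None (0) of the 12 genes had an enriched region, defined as at least 2 consecutive windows at a score of 2 or more, and 44.2% of the 10756 measured genes had one. Measured genes are those with at least 2 windows and a mean input of at least 1. Any window at a score of 1 or more was found in 78.9% of measured genes. The highest mean score of 2 consecutive windows, here called the gene-level score, ranged from 0.06 in MT-ND4L to 0.70 in MT-CO2. Its median was 0.55 against 1.81 over measured genes. Measured genes had a median of 55 windows and a median input of 3.75, against 18 windows and 2266 in the 12. Genes with more windows have more places for a high score or a region, and these comparisons were not matched for length or level.

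**Figure D2:**
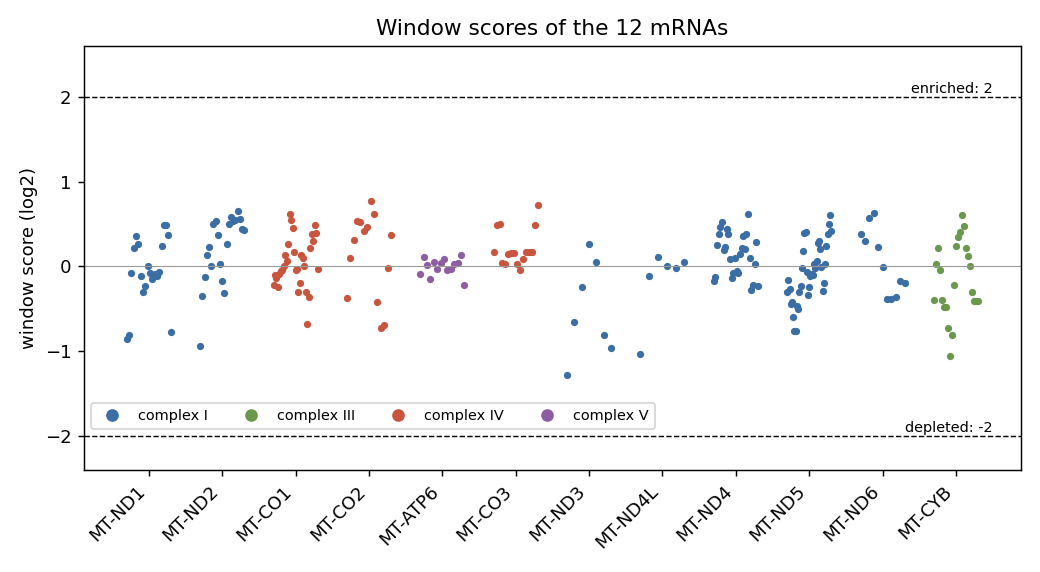
Window score (log2) of each of the 228 windows, spread from left to right by window number within each gene and coloured by respiratory complex, with dashed lines at 2 and -2. All points lie between -1.28 and 0.78, and those of MT-ATP6 lie within -0.22 and 0.14.

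Depth was high for nearly all of these windows. The median window had 12856 input reads and 9204 IP reads over each base, and the shallowest, the last of MT-ND1, had 137 and 52.6. The 95% counting interval of a window score had a median half-width of 0.02 and a largest of 0.28. Reads of 36 nt on 1 strand can start at only 36 places over a base, so the median window had 357 input reads and 256 IP reads for each such place. Many reads therefore share a start, and copies made by PCR cannot be told from separate fragments, which makes the counting intervals too narrow as a measure of error.

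Genes of like abundance were set beside them as a description. Outside the MT- names, 45 gene names had a mean input of at least 300 and at least 6 windows, limits chosen after the values were seen, with a median of 18 windows as in the 12 genes. Of these, 22 (48.9%) had a window at a score of 1 or more and 3 had an enriched region. The latter were the elongation factor gene EEF2 (gene-level score 2.70), the actin gene ACTB (2.18) and the tubulin gene TUBA1C (2.06), chosen after their values were seen. The median gene-level score was 0.86 in the 45 genes. The SD of scores within a gene had a median of 0.55 in the 45 genes and 0.39 in the 12 mitochondrial ones. Input coverage of the 45 genes had a median of 473, below that of 11 of the 12 mitochondrial mRNAs. The 45 include 2 clone-style names from the table rows beside the MT- genes, which may be mitochondrial RNAs themselves. Without them, an alternative chosen after seeing the data, 22 of 43 names (51.2%) had a window at a score of 1 or more, and the median gene-level score was 0.89. The 43 still include MTRNR2L2 (highest score 1.62) and MTRNR2L8 (0.86), nuclear genes named for their likeness to a mitochondrial ribosomal RNA.

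Because the score divides out whatever all windows of a gene share, the log2 ratio of a gene's mean IP coverage to its mean input coverage (1 added to each, called the gene-wide log2 ratio) was examined as well. On the authors' scaling it was above 0 in 8 of the 12 genes and below 0 in 4, with a median of 0.10, and it was above 0 in 67.3% of measured genes. The median over measured genes was 0.35, with quartiles at -0.12 and 1.24. The direction depends on how the libraries are scaled. Relative to the median measured gene the 12 had a median of -0.25, with 1 gene above it and 11 below. With each library scaled to its total coverage outside the MT- genes, the median was -0.80 and all 12 lay below 0, as did all but 33.4% of measured genes. The scaling factor behind the deposited values is not given in the sources used here, so only the order among genes is read from these ratios.

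Among the 12, the complex V mRNA MT-ATP6 had the highest gene-wide log2 ratio at 0.41 (95% counting interval 0.41 to 0.42), followed by MT-ND2 at 0.34, MT-ND5 at 0.33 and MT-ND4 at 0.26. MT-CYB and MT-ND1 stood at 0.11 each, MT-CO2 and MT-ND3 at 0.08 each, MT-ND6 at -0.02 and MT-CO3 at -0.05. MT-CO1, at -0.18, and MT-ND4L, at -0.40, were the lowest. The span of 0.81 corresponds to 1.75-fold. MT-ATP6 lay at percentile 52.6 of measured genes and MT-ND4L at 9.31, and none of the 12 exceeded the upper quartile of 1.24. MT-ND4L and MT-ND4, parts of a shared mRNA, differed by 0.65 on this log2 scale. Complex IV genes ranged from -0.18 to 0.08 and complex I genes from -0.40 to 0.34, so the complexes overlapped.

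**Figure D3:**
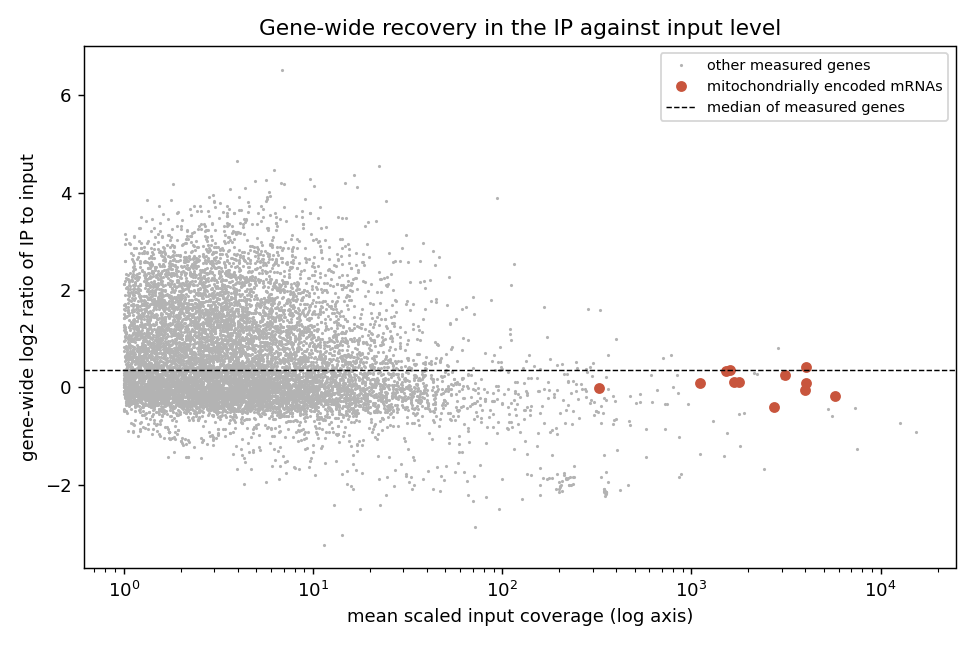
Gene-wide log2 ratio, IP over input, against mean scaled input coverage (log axis) for measured genes, with mitochondrially encoded mRNAs in red and a dashed line at the median of measured genes, 0.35. The red points lie at the abundant end, between -0.40 and 0.41, and 11 of 12 lie below the line.

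Along each mRNA, IP coverage varied largely with input coverage, although the highest window differed between the libraries in MT-CO3, MT-ND3, MT-ND4 and MT-CYB. The Pearson correlation of log2 coverage between both libraries was 0.96 over the 228 windows and from 0.90 (MT-CO2) to 0.99 (MT-CO3) within genes, given as a description of windows that overlap and share their gene's level. In MT-CO1 the highest window of the input (10898) was also the highest of the IP (12970). In MT-ATP6 all 14 windows lay higher in the IP than in the input on the authors' scaling, and scores stayed between -0.22 and 0.14, the narrowest range of the 12. Windows with more input coverage tended to have higher scores in 11 of 12 genes (Spearman 0.24 to 0.64 over windows), the exception being MT-CO3 at -0.10. This relation was not counted over all measured genes.

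**Figure D4:**
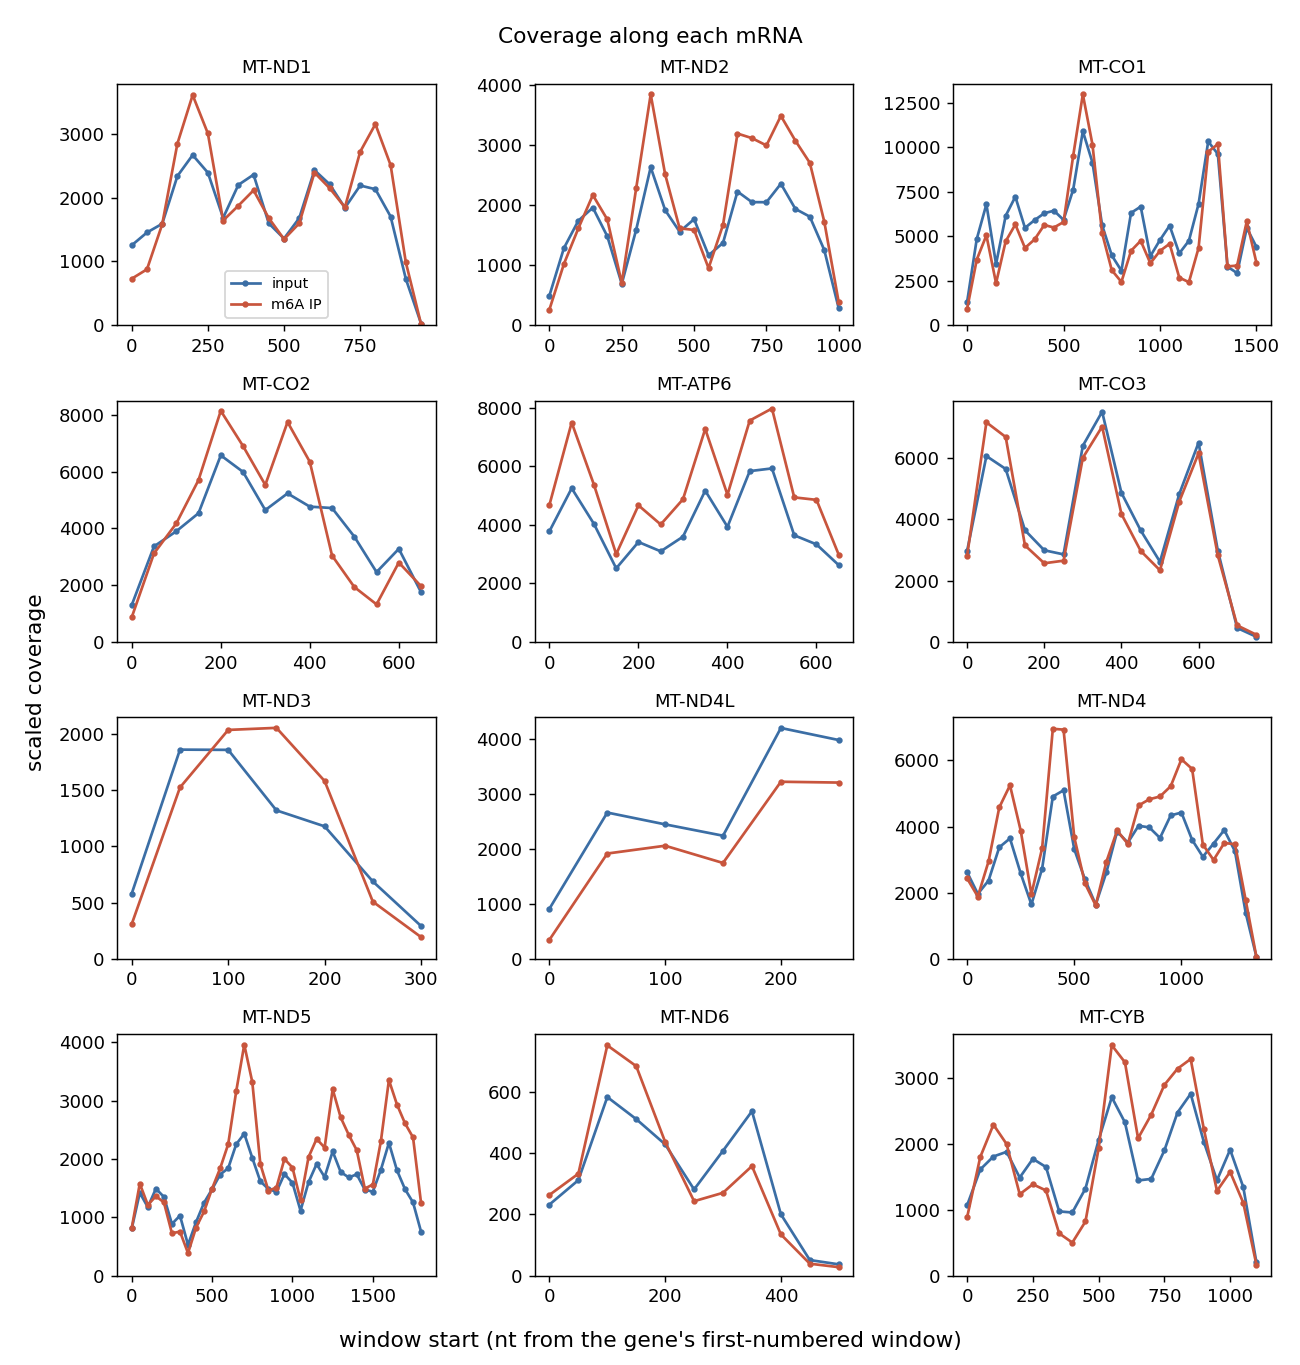
Scaled coverage of input (blue) and IP (red) along each of the 12 mRNAs, by window start in nt from the first-numbered window, with a linear axis from 0 that differs between panels. On the authors' scaling the IP lies below the input over windows 10 to 13 of MT-CO2 and 5 to 11 of MT-CYB.

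The highest score of all, 0.78 (95% counting interval 0.76 to 0.79), was that of window 8 of MT-CO2, with 7749 for IP coverage and 5235 for input. In the same gene the score went from 0.62 in window 9 to -0.42 in window 10 and -0.73 in window 11. Input coverage changed little over these windows, from 4768 to 4719 in window 10, while IP coverage went from 6349 to 3044. The next highest windows were the last of MT-CO3 at 0.73, where input was only 167 and IP 232, and window 18 of MT-ND2 at 0.65, with 1938 and 3076.

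MT-CYB had the widest range of scores, 1.67, and alternated along its length. Its lowest window, window 9, scored -1.06 (-1.11 to -1.01), with 960 in the input and 502 in the IP. Its highest, window 15, scored 0.61 (0.58 to 0.63), with 1471 and 2447. MT-ND5, the longest complex I mRNA with 37 windows, had its lowest score of -0.76 in window 8 and its highest of 0.60 in window 36. All these contrasts are larger than the counting intervals of their windows, which are too narrow as a measure of error, and stay below 4-fold. With 1 library of each kind their reproducibility was not tested.

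The remaining genes showed broad, shallow rises and falls. In MT-CO1 the score reached 0.62 in window 12 and 0.55 in window 13, and its lowest value was -0.68 in window 24, with 4740 in the input and 2410 in the IP. In MT-ND2 every window from 14 to 21 scored between 0.43 and 0.65, so the 3' part of this mRNA formed 1 continuous stretch above the gene's median. MT-ND4, the most abundant complex I mRNA, peaked at 0.61 in window 22 (3598 and 5744) and was lowest at -0.28 in window 24. In MT-ND3 the only windows above 0 were 4 and 5, at 0.27 and 0.05. In MT-ND6 windows 3 and 4 scored 0.57 and 0.62, toward the 3' end, and windows 7 to 9 scored -0.39, -0.38 and -0.37.

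Coverage dropped steeply at some gene ends in both libraries. The last window of MT-ND1 held 3.26% of the input coverage of the window before it, and 1.44% of the IP coverage. In MT-ND4 these shares were 4.39% and 3.06%, and in MT-CYB both were 15.0%. At the end of MT-ND4L, where the MT-ND4 frame begins, no such drop was seen, with 94.8% in the input and 99.5% in the IP. Last windows can run past a gene's end, and the part of this in the drop was not tested.

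The lowest score of the 12 genes, -1.28 (-1.34 to -1.22), belonged to window 1 of MT-ND3, with 581 in the input and 309 in the IP. Window 9 of MT-CYB came next, and then, at -1.03 (-1.08 to -0.98), window 1 of MT-ND4L, with 912 and 347. Window numbers rise with genome position, as shown by long 3' end exons of nuclear genes, where input fell toward the highest numbers in 90.9% of 1930 plus-strand and 16.2% of 1769 minus-strand cases. Window 1 is thus the 5' end of 11 of these genes, and the last window is the 5' end of MT-ND6, which lies on the opposite strand.

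The window at the 5' end scored below 0 in 11 of 12 genes, the exception being MT-CO3 at 0.17, and 36.1% of 6722 measured genes with a known strand had such a window below 0. Its median was -0.33, and it was the lowest window of the gene in MT-ND1 (-0.85), MT-ND2 (-0.94), MT-ND3 and MT-ND4L. In 3 genes the 5' end directly adjoins or overlaps another reading frame of the same strand with no transfer RNA gene between, and there the score was -0.09 (MT-ATP6), 0.17 (MT-CO3) and -0.17 (MT-ND4). In the other 8 genes of the same strand it ranged from -1.28 to -0.21, with MT-CO1 at -0.21 close to MT-ND4. Taken from the median score of each gene's interior windows, both groups overlapped, with MT-ND4 at -0.37 and MT-CO1 at -0.22. This grouping was chosen after the values were seen and was not tested. At the 3' end the last window scored below 0 in 6 of 12 genes, with a median of 0.01. By number and without regard to strand, the last window lay below 0 in 38.3% of 10243 measured genes of at least 6 windows. Input was also lower in the window at the 5' end than in the next one in 11 of 12 genes, for example 491 against 1283 in MT-ND2. The exception was MT-ND4, with 2621 against 1963. The share of measured genes with such a lower input was not counted. The part of input in the lower scores was not tested.

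**Figure D5:**
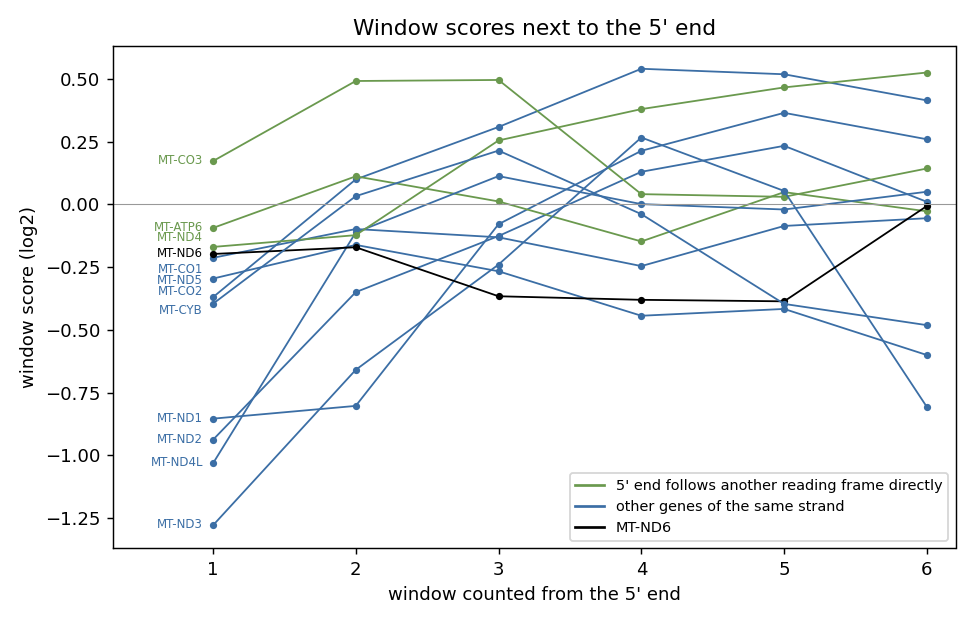
Window score (log2) in the 6 windows counted from the 5' end of each mRNA, with genes whose 5' end directly adjoins another reading frame in green, the others of the same strand in blue and MT-ND6 in black. The first window lies below 0 in 11 of 12 genes, and MT-ND3, MT-ND4L, MT-ND2 and MT-ND1 start lowest.

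Each gene was also divided from 5' to 3' into 3 parts, with the same number of windows in both end parts and any left over in the middle. The mean score was higher in the part at the 3' end than in the part at the 5' end in 10 of 12 genes. The difference ranged from -0.41 in MT-CO2 to 0.66 in MT-ND6, with a median of 0.11. In MT-ND6 the mean went from -0.24 to 0.42, in MT-ND2 from -0.08 to 0.54 and in MT-ND5 from -0.43 to 0.21. MT-CO2 and MT-ND4 ran the other way, and in MT-ATP6, MT-CYB and MT-ND3 the difference was under 0.1 (0.03, 0.05 and 0.08). The part at the 5' end includes the 5' end window described above. Such parts were not counted over all measured genes, so it is not known whether this is particular to the 12.

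Nuclear partners of the same complexes were described with a list of 72 genes, all of them measured. An enriched region was found in 4 (5.56%), against 44.2% of measured genes, and the median gene-level score was 0.80, against 1.81. The 2 highest were ATP5J, a subunit of the ATP synthase stalk, at 4.06 and the complex I subunit NDUFC1 at 3.91, and the lowest was the ATP synthase subunit ATP5I at 0.02. Their median gene-wide log2 ratio was -0.14 on the authors' scaling. A list of 52 nuclear genes held mostly those that transcribe, process, modify and translate mitochondrial RNA. It also held POLG, POLG2, C10orf2 and SSBP1, which act in the replication of mitochondrial DNA. Of its 51 measured members, 27 (52.9%) had a region, again against 44.2% of measured genes. The median gene-level score of this list was 2.51, against 1.81. The highest were MTPAP, the mitochondrial poly(A) polymerase, at 5.34 and TSFM, a mitochondrial elongation factor, at 5.29, and the lowest was SLIRP, an RNA-binding partner of LRPPRC, at 0.01. These transcripts had a median of 53 windows, those of the respiratory chain 20 and all measured genes 55. The lists were not matched to each other or to measured genes for length or level.

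In the same stretch of table rows stand 25 clone-style names that give no gene symbol and are not members. The table does not say which RNA each of them is, so their values cannot be assigned to a gene. They may be the mitochondrial RNAs that carry no MT- name, which was not tested. The 3 longest, with 32, 20 and 5 windows, had mean input coverage of 5240, 5543 and 3024 and gene-wide log2 ratios of -0.44, -0.59 and 0.18. Their window scores lay between -1.25 and 0.76. A name with 2 windows cannot have a region under this score, so regions were not counted over the rest. The other 22, of 2 windows each, had ratios from -2.87 to -0.07 with a median of -1.27, and 20 of them lay below every MT- gene.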

How the data were processed

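Per the submitters' processing notes, reads were aligned with TopHat 1.1.3 and the genome build was hg19. The sources used here do not give the annotation, the coverage program or the treatment of reads with several matches. Reads from nuclear copies of mitochondrial DNA thus cannot be told apart from those of the organelle. The coverage and gene median columns deposited by the authors are a signal, scaled per library. The deposited window score is a log2 value. Recomputing medians and scores from the authors' coverage, with 1 added to each number, gave 0 values off by more than 1e-09. All nonzero coverage values (100% in each library) were multiples of 1 step to within 0.01 step, and 1 isolated read gave 37 steps and 2 overlapping reads 73, from which 36 nt per read was taken. Coverage on 1 listing per gene (the one with most windows) equals 51.7 M input and 58.5 M IP reads.

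Ratios, regions and ranks came from pandas 2.3.3 and numpy 2.4.6 in Python 3.11.15, intervals from scipy 1.17.1, figures from matplotlib 3.10.9. Counting intervals are exact (Clopper-Pearson, 95%) on the implied reads, with gene medians held fixed. Region calling was tested on simulated data. Every MT- gene is named, with the 3 highest and lowest windows among those described, and 3 measured members of each nuclear list, the 2 with the highest and the 1 with the lowest gene-level score. Gene lists were matched by table name, 7 of 52 machinery genes through another RefSeq symbol. Members and lists were chosen with earlier results of these data known. Alternatives were the number added, the threshold, centring, the input minimum, the scaling, the listing and the end windows.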

Additional observations from a re-analysis of the deposited data

How the results depend on the processing

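No window or region of the 12 genes passed with 0.1 or 5 added, without division by the gene median, or at a threshold of 1 (0 in each). A threshold of 3, single-window regions and end windows left out also gave 0, which was fixed once no window reached 2. Medians over 1 listing changed nothing, since each of the 12 genes has 1 listing. The median gene-level score was 0.51 without division by the gene median and 0.52 without the end windows. The median gene-wide log2 ratio of 0.10 changed sign with the scaling, to -0.25 relative to the median measured gene, to -0.80 with libraries scaled to coverage outside the MT- genes, and to -0.73 with scaling to total reads, an alternative chosen after seeing the data. With medians over windows in place of means it was 0.039. The shares of coverage were 5.77% in the input and 3.31% in the IP with all listings counted. The median score of the 5' end window was -0.36 when taken from the interior windows of each gene, another alternative added later. No paired analysis was possible because each group has 1 library. Implied read numbers overstate the depth, since copies cannot be told from separate fragments, and 1 library of each kind gives no replicate check.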
